A study of Homo sapiens with 14 samples.

Results

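Peaks of an antibody to ZNF143 that lay at promoters and were listed only without treatment are described here. They were selected on the called positions of peaks in both lists, as the peaks of the untreated list that shared no base with any peak of the dTAG-V1 list, and whose centre lay from 2000 bp upstream to 1000 bp downstream of the transcription start site (TSS) of any GENCODE gene in hg38. There were 1086 such peaks among the 7218 promoter peaks of the untreated list and the 20429 peaks of that list in all. In the study, the signal of this antibody was recorded with ZNF143 present and after its acute removal, in the line ZNF143-FKBP HEK293T. HEK293T cells are an established human line from embryonic kidney. In this derivative, which is 1 line, ZNF143 carries an HA tag and an FKBP12 degron in both groups. One group of 4 samples received no treatment and the other group of 4 received 0.5 µM dTAG-V1 for 30 min, a small molecule that binds the degron and directs the tagged protein to degradation. ChIP-seq, in which crosslinked chromatin is precipitated with an antibody and sequenced, was performed with a Proteintech antibody to ZNF143, and 1 list of peaks per condition was analysed here. The paper examined with these data whether the antibody also recognizes CTCF, another DNA-binding protein, and concludes that it does. A listed peak therefore need not mark ZNF143.

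ZNF143 is a zinc finger protein that activates transcription from many promoters, among them those of small nuclear RNA genes and of widely expressed protein-coding genes. It binds through its zinc fingers to the Staf binding site, or SBS, which has a conserved core that starts with CCCA. One form of the site, SBS2, also carries the hexamer ACTACA upstream of the core, and the other form, SBS1, does not. CTCF is another zinc finger protein, with a different motif, which binds insulators and the anchors of chromatin loops, and its motif was searched in the same peaks.

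The 5 sites with the strongest match to an SBS matrix among the 1086 peaks are shown first, because the later counts turn on their parts. The core is in capitals in each, and the hexamer is in capitals where it is exact. They are 25 bases of the hg38 reference, read 5′ to 3′ along the strand of the site.
KSR1: ACTACAagtCCCAGCATGCccggcc
ENSG00000279433: ACTACAtttCCCAGCAGCCcttgca
LINC01173: ACTACAtttCCCAGAATCCcattcc
ENSG00000279388: actctatttCCCAGCATCCcttgcg
ENSG00000240478: ttggagcttCCCAGCATGCtttgca
The site at KSR1, a scaffold of the RAS to MAP kinase pathway, lay at chr17:27456369-27456393 on the plus strand, 70 bp upstream of the TSS and 23 bp from the summit of its peak. The site at ENSG00000279433, within intron 1 of MBP, lay at chr18:77110615-77110639 on the plus strand, 11 bp from the summit. The site at LINC01173, a long non-coding RNA gene, lay at chr2:234682801-234682825 on the minus strand, 8 bp from the summit. The other two lay at chr12:131482431-131482455 on the minus strand, 38 bp from the summit, and at chr3:182121113-182121137 on the plus strand, 16 bp from the summit. The first 3 sites hold the hexamer and the last 2 do not.

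The sites of the peaks with the highest scores differed more from this pattern, as those of 5 of the 6 highest show. The sixth lies on a chromosome from which no sequence is given.
MED26: cgcggactaCCCAGAGTACtccgcg
ZFTA: tcgttgcctCCCGCCTTTCccccca
GFER: ccgagctgaCCCGGCAGGCcttgcg
ZNF777: gacatgcctCCCAGGATGCagtttg
ZNF280D: cggagcctaCCCATGAGGCagcgcg
They lay at chr19:16628217-16628241 (minus strand), chr11:63768893-63768917 (minus), chr16:1984186-1984210 (plus), chr7:149460583-149460607 (minus) and chr15:56733618-56733642 (minus). None of the 5 holds the exact hexamer. The core of MED26 starts with CCCA, whereas that of ZFTA and of GFER starts with CCCG.

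Of all peaks of the untreated list, 26.8% shared no base with the dTAG-V1 list. Of its promoter peaks 15.0% did not (1086 of 7218, 95% Wilson interval 14.2 to 15.9), and of its peaks away from promoters 33.3% did not (4395 of 13211). In the other direction, 35.0% of the promoter peaks of the dTAG-V1 list shared no base with the untreated list (3278 of 9371). The rule set these shares, and they are given as a description. According to the methods, peaks had to be found in each of the 4 replicates without treatment and in any of the 4 with dTAG-V1, so that the conditions were not filtered alike, but whether this holds for the deposited lists could not be checked. Their depth is unknown, and 1 pooled row per peak leaves no error between replicates. Intervals here cover counting error over peaks only.

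The score of MACS2, which grows as the q-value of a peak falls, was 114 at the median of the 1086 peaks (quartiles 56 and 291, range 20 to 11921). The fold enrichment at the summit over the local background was 3.21 at the median (quartiles 2.54 and 4.66), and the width was 320 bp. The 6132 promoter peaks that shared a base with the dTAG-V1 list, called shared promoter peaks below, had a median score of 330, a median fold enrichment of 4.91 and a median width of 536 bp. Most of the 1086 peaks were thus narrow and weak, but a tail of them was strong. Of the promoter peaks scored under 100, 24.7% were found only untreated (489 of 1981), and of those scored from 100 to under 300, 18.3% (329 of 1797). The share was 17.3% from a score of 300 to under 1000 (196 of 1131) and 3.12% from 1000 upwards (72 of 2309).

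The nearest peak of the dTAG-V1 list lay 7103 bp away at the median (quartiles 974 and 27234 bp). It lay within 500 bp of 170 peaks (15.7%) and more than 10 kb away from 488 (44.9%). The count therefore rests in part on peaks with a close neighbour and in part on isolated ones. The 5 nearest included CPB1 and GOLM2, whose peaks abutted a dTAG-V1 peak with no base between them, LINC01572 at a gap of 4 bp and TRIM26 at a gap of 17 bp. Just outside the rule, the promoter peaks with the smallest overlap were those of RN7SL408P (3 bp, score 28), ZC3H13 (4 bp, score 61), CHMP2B and RUFY3 (9 bp each, scores 35 and 54) and ZNF664 (10 bp, score 83). At the edges of the promoter window, the farthest peaks inside it lay 1986 bp upstream of ENSG00000249262 and 1000 bp downstream of SCLY. The nearest outside it lay 2001 bp upstream of RNU6-176P and 1022 bp downstream of RNU6-1174P. The authors' call numbered its peaks along the genome, and the numbers of the dTAG-V1 call ran on without a gap across 1069 of the 1080 peaks for which this could be read. At those places no numbered dTAG-V1 peak had been called and then filtered out, whereas a number was missing across the other 11.

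**Figure D1:**
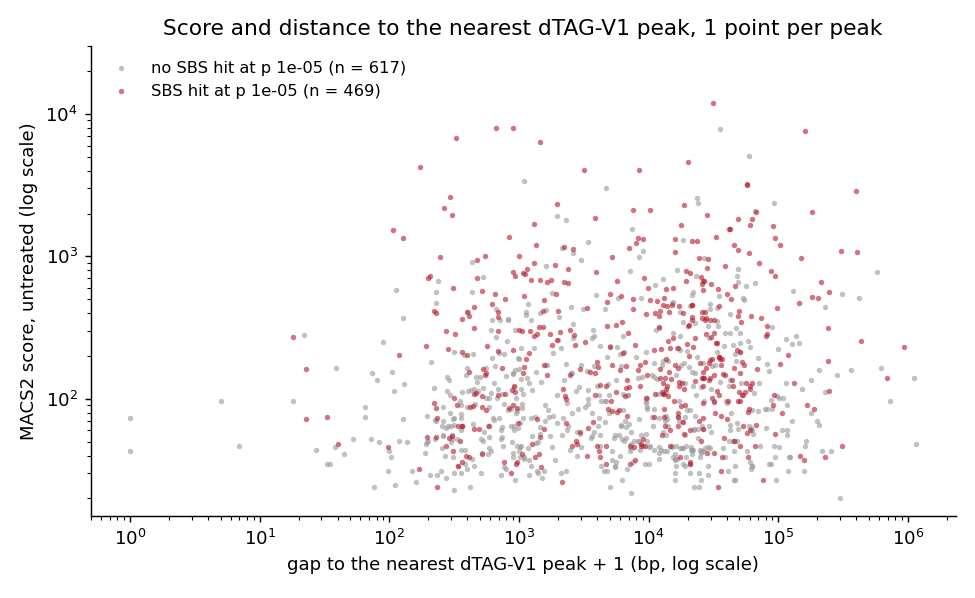
MACS2 score of each promoter peak found only untreated against its gap in bp, plus 1, to the nearest dTAG-V1 peak, both on log scales, with 1 point per peak and the 469 peaks with an SBS hit at 1e-05 in red. Scores run from 20 to 11921, and 488 of the 1086 peaks lie more than 10 kb from a dTAG-V1 peak.

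The peaks lay further from the TSS than shared promoter peaks. Their centre lay 352 bp from the nearest TSS at the median (quartiles 134 and 779 bp), against 169 bp for shared promoter peaks and 476 bp for promoter peaks of the dTAG-V1 list only. Within 250 bp of a TSS there were 448 of them (41.3%), against 63.4% of shared and 27.2% of dTAG-V1-only promoter peaks. They were nearly evenly split by side, with 571 (52.6%) upstream of the TSS. Within bins of score the gap to the shared peaks remained. It was -8.20 percentage points under a score of 100 (34.6 against 42.8%). From 300 to under 1000 it was -19.7 points (51.5 against 71.2%, 95% Newcombe interval -27.2 to -12.2). From 1000 upwards it was -24.3 points (52.8 against 77.1%, -35.8 to -13.1). This last bin is open, with scores up to 11921 in these peaks and 380426 in shared peaks, so that its scores are not alike.

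**Figure D2:**
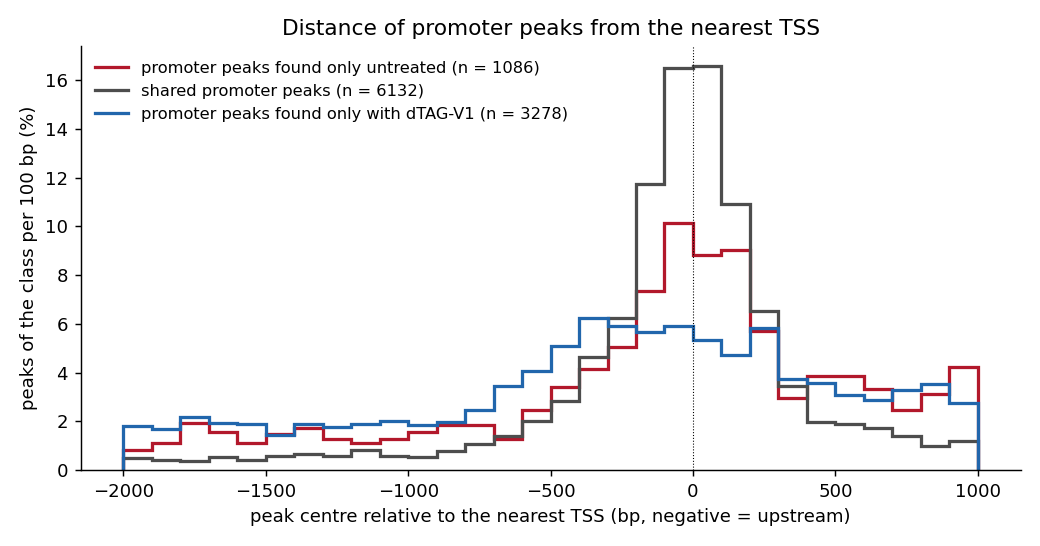
Position of the peak centre relative to the nearest TSS in bp (negative is upstream), as the percentage of peaks of each class per 100 bp, for 1086 peaks found only untreated, 6132 shared and 3278 dTAG-V1-only promoter peaks. Peaks found only untreated are spread more widely over the promoter window than shared promoter peaks, with 41.3 against 63.4% within 250 bp.

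A smaller share of the peaks than of shared promoter peaks lay in the promoter window of a protein-coding gene. Each peak was called by its nearest TSS, with protein-coding genes first and, within each kind, genes with a symbol before those without one. By this rule 751 (69.2%, 66.3 to 71.8) were called by a protein-coding gene, against 82.0% of shared promoter peaks (difference -12.9 points, -15.8 to -10.0). Long non-coding RNA genes named 245 (22.6%), which was 9.48 points above the share in shared peaks (6.94 to 12.2). Pseudogenes named 57 (5.25%), or 2.92 points more (1.67 to 4.45). Divergent promoters, where 2 genes start close together on opposite strands, held 56 of the peaks (5.16%), against 8.89% of shared peaks (difference -3.73 points, -5.11 to -2.10). Under a score of 100 the interval of the protein-coding difference included 0 (-3.85 points, -8.55 to 0.642). From 300 to under 1000 the difference was -16.65 points (70.4 against 87.1%, -23.7 to -10.3). In the open bin from 1000 upwards, where scores are not alike, it was -26.6 points (61.1 against 87.8%). Centres lay in an exon of the annotation's chosen transcript in 245 peaks, in an intron in 401 and outside any gene in 311. In 129 they lay within a gene but outside its chosen transcript. Of the exonic ones 72 were in a 5′ UTR, 42 in coding sequence and 16 in a 3′ UTR, and the rest were assigned to none of these.

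Most peaks had neither a shared nor a dTAG-V1-only peak near their TSS. Neither lay in the promoter windows of 794 (73.1%), a shared peak also lay there in 124 (11.4%) and a dTAG-V1-only peak in 176 (16.2%), with 8 in both of the latter. The 1086 peaks were called by 1066 different genes, and 40 of them shared their gene with another of the peaks. They were found on 23 chromosomes, and the share of promoter peaks found only untreated ran from 10.5% on chromosome 19 (62 of 592, 8.26 to 13.2) to 30.0% on chromosome 21 (21 of 70, 20.5 to 41.5).

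In whole peaks an SBS was about as frequent as in shared promoter peaks at the loosest hit threshold and less frequent at stricter ones. At the loosest it was more frequent than at other promoters. With a hit threshold of 5e-05, 773 of the 1086 peaks held an SBS1 or SBS2 hit (71.2%, 68.4 to 73.8), against 72.5% of shared promoter peaks (difference -1.31 points, -4.29 to 1.54). Only 35.8% of dTAG-V1-only promoter peaks held one (difference 35.4 points, 32.1 to 38.4). Windows of 320 bp on the TSSs of all protein-coding genes, the median width of the peaks, held one in 54.9% (difference 16.3 points, 13.4 to 18.96). The comparison with shared peaks turned with the window searched. Within 100 bp of the summit, 63.3% of the peaks had a hit against 56.0% of shared peaks (difference 7.23 points, 4.06 to 10.3), and within 100 bp of the centre 55.9 against 47.5%. Untreated-only peaks away from promoters held one within 100 bp of the summit in 62.4%, which differed from the promoter peaks by 0.848 points (-2.39 to 4.01). With a hit threshold of 1e-05 the share was below that of shared promoter peaks in whole peaks. A hit was found in 469 of the peaks found only untreated at promoters (43.2%, 40.3 to 46.2), against 47.0% (difference -3.80 points, -6.97 to -0.581). Within 100 bp of the summit the interval of this difference included 0 (37.2 against 37.6%, -0.438 points, -3.52 to 2.72). At 1e-06 the share was lower in both. It was 19.1 against 28.1% in whole peaks (difference -9.04 points, -11.5 to -6.35). Within 100 bp of the summit it was 17.4 against 25.7% (difference -8.30 points, -10.7 to -5.695).

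Peaks of similar score differed more. Within 100 bp of the summit, 76.0% of peaks scored from 100 to under 300 held an SBS (250 of 329), against 39.0% of shared promoter peaks (573 of 1468, difference 37.0 points, 31.5 to 41.9). From 300 to under 1000 these shares were 79.6 and 48.0% (156 of 196 and 449 of 935, difference 31.6 points, 24.6 to 37.5). Under 100 they were 43.6 and 30.4%, a difference of 13.1 points (8.19 to 18.1). From 1000 upwards nearly all held one, 94.4% (68 of 72) against 87.6%, and the interval of the difference included 0 (-1.16 to 10.5). Score is of the contrast that the rule used, so that these bins only set peaks of like height side by side. The bin from 1000 upwards has no upper limit, and its scores reached 11921 in these peaks and 380426 in shared peaks.

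**Figure D3:**
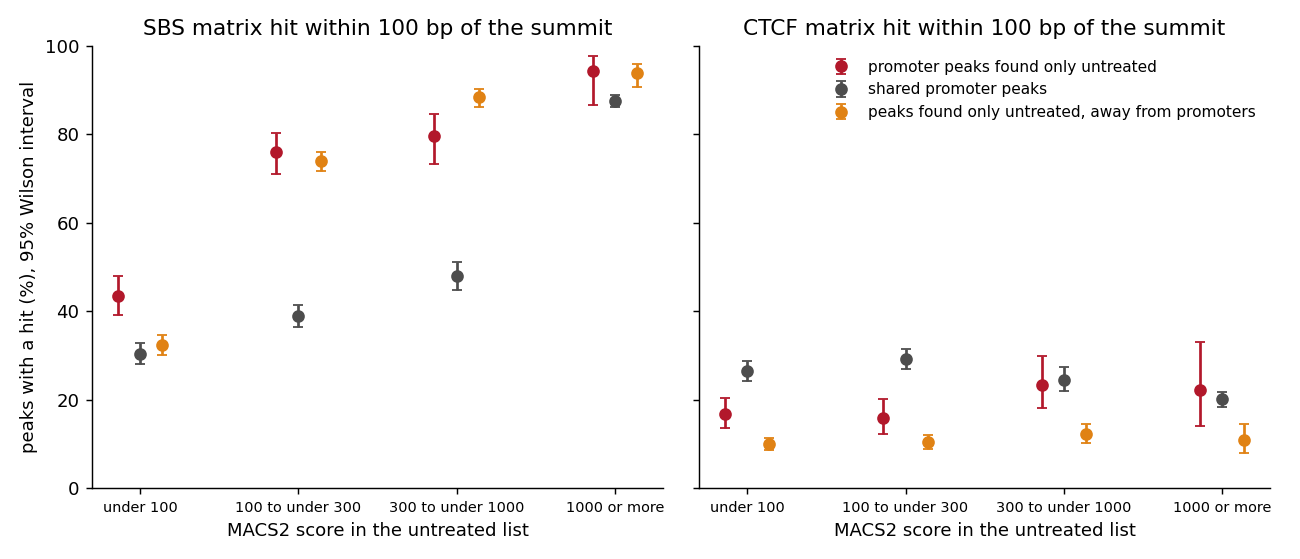
Percentage of peaks with an SBS hit (left) and a CTCF hit (right) at 5e-05 within 100 bp of the summit, by MACS2 score, with 95% Wilson intervals, for promoter peaks found only untreated, shared promoter peaks and peaks found only untreated away from promoters. Promoter peaks found only untreated held an SBS more often than shared promoter peaks of like score from 100 to under 1000, at 76.0 against 39.0% and 79.6 against 48.0%.

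The CTCF motif was less frequent than in either other class of promoter peak and more frequent than in untreated-only peaks elsewhere. A CTCF hit at 5e-05 was found in 301 peaks (27.7%, 25.1 to 30.5), against 47.1% of shared promoter peaks (difference -19.3 points, -22.2 to -16.3) and 43.9% of dTAG-V1-only ones (difference -16.2 points, -19.3 to -13.0). It was found in 15.3% of untreated-only peaks away from promoters (difference 12.45 points, 9.65 to 15.4). Windows of 320 bp on protein-coding TSSs held one in 33.6% (difference -5.87 points, -8.54 to -3.06), and windows on the TSSs of all genes in 22.2% (difference 5.56 points, 2.96 to 8.31). Within 100 bp of the summit the difference from shared peaks was -6.50 points (-8.93 to -3.87) and that from dTAG-V1-only peaks -17.7 points (-20.5 to -14.8). By score, the share was below that of shared peaks under 100 (16.8 against 26.5%) and from 100 to under 300 (15.8 against 29.2%). It was 23.5 against 24.6% from 300 to under 1000 and 22.2 against 20.1% from 1000 upwards, where both intervals included 0 (-7.23 to 5.81 and -6.13 to 13.1). At the threshold of 1e-05 in whole peaks, 56 peaks held both motifs and 560 (51.6%) neither, against 41.1% of shared peaks with neither. In windows of equal width the difference in the share with neither was smaller. Within 100 bp of the summit it was 5.41 points (58.66 against 53.25%, 2.204 to 8.562). Within 100 bp of the centre its interval included 0 (64.73 against 64.89%, -3.279 to 2.878).

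The exact hexamer was rare at the SBS of these peaks. It stood at the best site of 21 of the 773 peaks with a hit at 5e-05 (2.72%, 1.78 to 4.12), against 725 of 4445 shared promoter peaks (16.3%, difference -13.6 points, -15.1 to -11.8). With sites at 1e-05 the shares were 4.26 and 24.8%. SBS2 hits at 1e-05 were likewise found in 128 peaks (11.8%), against 24.2% of shared peaks (difference -12.5 points, -14.5 to -10.1). The share moved with the score. At sites of 1e-05 it was 0 of 133 under a score of 100, which allows up to 2.81% by the Wilson interval, 3 of 157 from 100 to under 300 (1.91%), 7 of 123 from 300 to under 1000 (5.69%) and 10 of 56 from 1000 upwards (17.9%, 10.0 to 29.8). In shared peaks it was 1.66% from 300 to under 1000, which lay 4.03 points lower (0.547 to 9.69), and 37.9% from 1000 upwards (701 of 1851), where the peaks found only untreated differed by -20.01 points (-28.2 to -7.83). In the bins under 300 the shared peaks were at 0.394 and 1.69%. Of the bins, the highest is the one in which the hexamer was rarer than in shared peaks by more than the counting interval. That bin has no upper limit, and scores reached 11921 in these peaks and 380426 in shared peaks. Its difference is therefore not one between peaks of like score.

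Letter by letter, the hexamer differed more than the start and the end of the core. The second letter of the hexamer matched in 45.2% of the peaks' sites at 1e-05 against 64.6% in shared peaks, and the third in 28.6 against 50.7%. The first 3 letters of the core matched in 97.7, 98.9 and 98.7%, against 97.9, 99.4 and 99.2% in shared peaks. The last letter of the core, its C, matched in 94.5 against 92.2%. Within the core, the letter after CCC matched more often in these peaks (78.0 against 71.4%) and the one before the last C less often (36.7 against 46.6%). The sites of MED26, ZNF777 and ZNF280D printed above are of this kind, with the start of the core and without the hexamer.

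**Figure D4:**
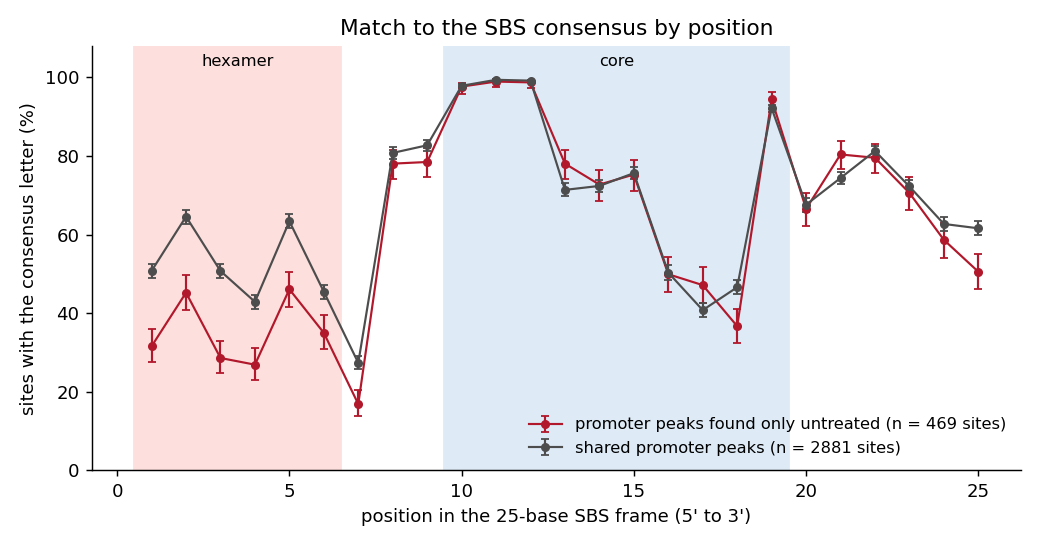
Percentage of SBS sites (threshold 1e-05, best site per peak) with the consensus letter at each of 25 positions, 5′ to 3′, with 95% Wilson intervals, and the hexamer and the core shaded. At the 6 positions of the hexamer the 469 sites of promoter peaks found only untreated lie below the 2881 of shared promoter peaks, and at the first 3 positions of the core both lie above 97%.

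The sites stood close to the summits. Of the 469 peaks with a site at 1e-05, 321 had its core within 50 bp of the summit (68.4%, 64.1 to 72.5), at a median of 24 bp, against 64.5% and 27 bp in shared promoter peaks and 31.6% and 86 bp in dTAG-V1-only ones. In untreated-only peaks away from promoters 89.3% lay so close, at a median of 12 bp. Of 322 such peaks called by a protein-coding gene, the site was on the strand of the gene in 168 (52.2%, 46.7 to 57.6), and it lay from 200 bp upstream to 50 bp downstream of the TSS in 80 (24.8%), against 48.4% in shared peaks.

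The SBS share and the score both varied with the neighbours of a peak. At 1e-05, a site was present in 46.5% of the 794 peaks with neither a shared nor a dTAG-V1-only peak nearby (369), in 38.7% of the 124 with a shared peak nearby (48) and in 30.7% of the 176 with a dTAG-V1-only peak nearby (54). It was present in 48.4% of peaks over 10 kb from a dTAG-V1 peak (236 of 488) and in 35.9% of those within 500 bp of one (61 of 170). The median score was 125, 107.5 and 74.5 in the first 3 of these subsets, 135 beyond 10 kb and 74.5 within 500 bp. The differences between the subsets, and the part of the score in them, were not tested.

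The peaks were GC-rich, with fewer CpG islands than shared promoter peaks. The median GC content was 57.2%, against 58.9% in shared promoter peaks, 50.0% in dTAG-V1-only ones and 43.9% in untreated-only peaks elsewhere. The ratio of observed to expected CpG dinucleotides was 0.608 at the median, against 0.751 in shared peaks. Both a ratio above 0.6 and a GC content above 50% were found in 519 peaks (47.8%, 44.8 to 50.8), against 71.2% of shared peaks and 59.2% of windows on protein-coding TSSs.

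Words of most other promoter factors were less frequent than at protein-coding promoters in general, but several were near their share at the TSSs of all genes. Exact words on both strands within 100 bp of the centre were counted and set beside windows of 201 bp on all protein-coding TSSs. An ETS word (CCGGAAGT) was found in 20 peaks (1.84%), against 6.43% of shared peaks and 4.51% of TSS windows, and a word of NRF1 (GCGCATGC), a regulator of nuclear genes for mitochondrial proteins, in 8 (0.737%), against 1.94 and 2.995%. A YY1 word (AAGATGGCG) was found in 11 (1.01%, against 2.67 and 2.04%) and a CRE (TGACGTCA) in 5 (0.460%, against 1.57 and 1.87%). The GC box (GGGCGGGG), bound by SP1, was found in 110 peaks (10.1%), near the 10.99% of shared peaks and below the 22.5% of TSS windows. The CCAAT word was found in 226 (20.8%, against 23.9 and 26.0%) and the E-box (CACGTG) in 68 (6.26%, against 6.12 and 5.88%). The AP-1 word (TGAGTCA) was found in 38 (3.499%, against 2.09 and 2.62%). The TATA word (TATAAAA) was found in 30 (2.76%, against 1.99 and 2.59%), a Kaiso-like word (TCTCGCGA) in 5 (0.460%, against 1.34 and 1.18%) and the octamer (ATTTGCAT) in 4 (0.368%, against 0.685 and 0.819%). A word is a match of letters and says nothing of the factor itself.

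The 10 peaks with the highest scores are named here, and the functions of their genes were not compared with those of other peaks. The peak of MED26, a subunit of Mediator, had the highest score, 11921, and lay at chr19:16628131-16628574, in an intron of ENSG00000268790, 710 bp downstream of the TSS of MED26 and 31393 bp from any dTAG-V1 peak. This peak lay nearer to the TSS of ENSG00000141979, a gene without a symbol, 148 bp upstream of it. By score it ranked 1676 among all 20429 untreated peaks. ZFTA, whose gene is rearranged in ependymoma, followed with a score of 7961 at chr11:63768740-63768961, 75 bp upstream of the TSS. The peak of GFER, a sulfhydryl oxidase of the mitochondrial intermembrane space, scored 7914 at chr16:1984101-1984709, over exon 1, with a dTAG-V1 peak 659 bp away. ZNF777 (score 7878, chr7:149460506-149460756) and ZNF280D (7612, chr15:56733434-56733737) encode zinc finger proteins, and their peaks lay 35321 and 159277 bp from a dTAG-V1 peak. ZBTB10, a zinc finger gene of the BTB family, scored 6764 with a dTAG-V1 peak 328 bp away. KSR1 scored 6325 at chr17:27455890-27456507, and SMARCA1, an ATPase of ISWI remodelling complexes, 5086 at chrX:129522334-129522950 in intron 1. HELZ, an RNA helicase, scored 4584 at chr17:67244610-67245518, over an exon of its antisense gene, and RIC8A, a chaperone of G protein alpha subunits, 4265 at chr11:208233-209049 in the 5′ UTR of exon 1, with a dTAG-V1 peak 172 bp away. All 10 held an SBS hit at 5e-05. The 5 peaks with the lowest scores, at CARD6 and FSD1L (24 each), ZNRF3-AS1 (23), RAB21 (22) and ENSG00000253593 (20), held none.

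Of 20033 protein-coding genes, 832 had such a peak in their promoter window (4.15%), 121 of them beside a shared peak, and 12.4% of the 6720 with any untreated promoter peak had one (11.6 to 13.2). For long non-coding RNA genes this share was 18.0% of 2446. Gene groups were read against these values. A gene counted if such a peak lay in its promoter window, even where the peak was nearer to the TSS of another gene. This was so at MRPS34, NDUFV3 and AARS1. Most genes of the mitochondrial ribosome had a shared peak. Of 78, 64 had one, and only MRPS34 had a peak found only untreated (score 360, fold enrichment 5.84), which was 1.54% of those with an untreated peak (0.272 to 8.21). That peak lay 790 bp downstream of the TSS of MRPS34, in a coding exon, and 450 bp upstream of the TSS of EME2. Of 108 genes of oxidative phosphorylation and its assembly, 71 had a shared peak. A peak found only untreated was present at 6.579% of the 76 with any untreated peak (2.843 to 14.49). This interval includes the 12.4% of all protein-coding genes with an untreated peak. The genes of the group with a peak found only untreated numbered 5. These were ATP5F1C, the gamma subunit of ATP synthase (score 427, 64 bp downstream of the TSS, 29848 bp from a dTAG-V1 peak), COX17, a copper chaperone (72), ATP5MC3 (65), NDUFV3 (60) and NDUFAF4 (35).

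Counts of such peaks were small in other groups of widely expressed genes, and most of their intervals included the share of all protein-coding genes. Of 87 genes of the cytosolic ribosome, 70 had a shared peak and 3 a peak found only untreated, RPL6 (score 254), RPL36AL (92) and RPS21 (69). These were 3.45% of the group, against 4.15% of all protein-coding genes. Of those with an untreated peak they were 4.11% (1.41 to 11.4), against 12.4%. There was 1 such gene each among 50 genes of the proteasome and its assembly (PSMG1, 116) and 35 aminoacyl-tRNA synthetases (AARS1, 47), or 2.86% (0.506 to 14.53) and 3.45% (0.611 to 17.2) of those with an untreated peak, intervals that include the 12.4% of all protein-coding genes. None was found among 47 splicing genes, of which 37 had a shared peak, 27 nucleolar genes, of which 20 did, or 23 genes of the cilium, of which 13 did. With 0 found, the upper limits of the Wilson interval among those with an untreated peak were 9.41, 16.1 and 22.8%. For the nucleolar and cilium genes these limits lie above the 12.4%. The human counterparts, by symbol, of mouse genes that the study names (11 genes) had none either, and 9 of them had a shared peak.

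Genes of zinc finger proteins and of vesicle transport had more in number. Of 515 ZNF genes, 30 had a peak found only untreated, which was 9.84% of the 305 with an untreated peak (6.98 to 13.7), led by ZNF777 and ZNF280D. Of 177 genes of vesicle transport 11 had one (11.96% of 92), among them VPS26A, a subunit of retromer (score 1355, 126 bp from a dTAG-V1 peak), and TRAPPC11 (901). Both shares lie near the 12.4% of all protein-coding genes.

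In replication licensing, 2 of 22 genes had one. CDT1, which loads the MCM helicase, had a peak with a score of 747 and a fold enrichment of 6.92, 585 bp downstream of the TSS and 1103 bp from a dTAG-V1 peak, and ORC6, a subunit of the origin recognition complex, had one with a score of 473 beside a shared peak. The SBS of CDT1 is shown as an example from a gene of the cell cycle and lies at chr16:88804183-88804207 on the minus strand, 34 bp from the summit.
CDT1: ccggcctgtCCCAGAGTTCcctgcg
Its core starts with CCCA and the hexamer is not exact. In DNA repair, FANCL (score 174) and FANCM (73), both of the Fanconi anaemia pathway, had a peak among 25 genes. Among 52 chromatin genes SMARCA1, the histone demethylases KDM6A (394) and KDM3B (388) and the histone methyltransferase KMT5C (135) did. Of 69 histone genes H2AC15 (138) and H4C16 (39) did. Of the genes with an untreated peak these were 11.1% in replication licensing, 13.3% in DNA repair, 14.3% among chromatin genes and 6.67% among histone genes, and each interval includes the 12.4% of all protein-coding genes.

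Potassium channel and collagen genes had few untreated peaks of any kind. Of 96 potassium channel genes 7 had an untreated peak, 3 of them a peak found only untreated (42.9%, 15.8 to 74.95), at KCNJ6 (score 509, 420332 bp from a dTAG-V1 peak), KCNB2 (47) and KCNMB4 (34). Of 44 collagen genes 6 had one, of which COL4A1 (147) and COL25A1 (34) had a peak found only untreated (33.3%, 9.68 to 70.0). Of 39 HOX genes 14 had an untreated peak (35.9%, against 33.5% of all protein-coding genes). HOXA11 (992) and HOXC10 (36) had a peak found only untreated, or 14.3% of the 14 (4.01 to 39.9). This lies near the 12.4% of all protein-coding genes with an untreated peak. No gene of 416 olfactory receptors and 53 protocadherins had one, but only 1 and 0 of them had any untreated peak. Of 1901 small nuclear RNA genes and pseudogenes 9 had a peak found only untreated and 78 a shared peak, and the highest score of the former was 704, at RNU6-513P. The 9 were 10.3% of the 87 with an untreated peak (5.54 to 18.5).

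**Figure D5:**
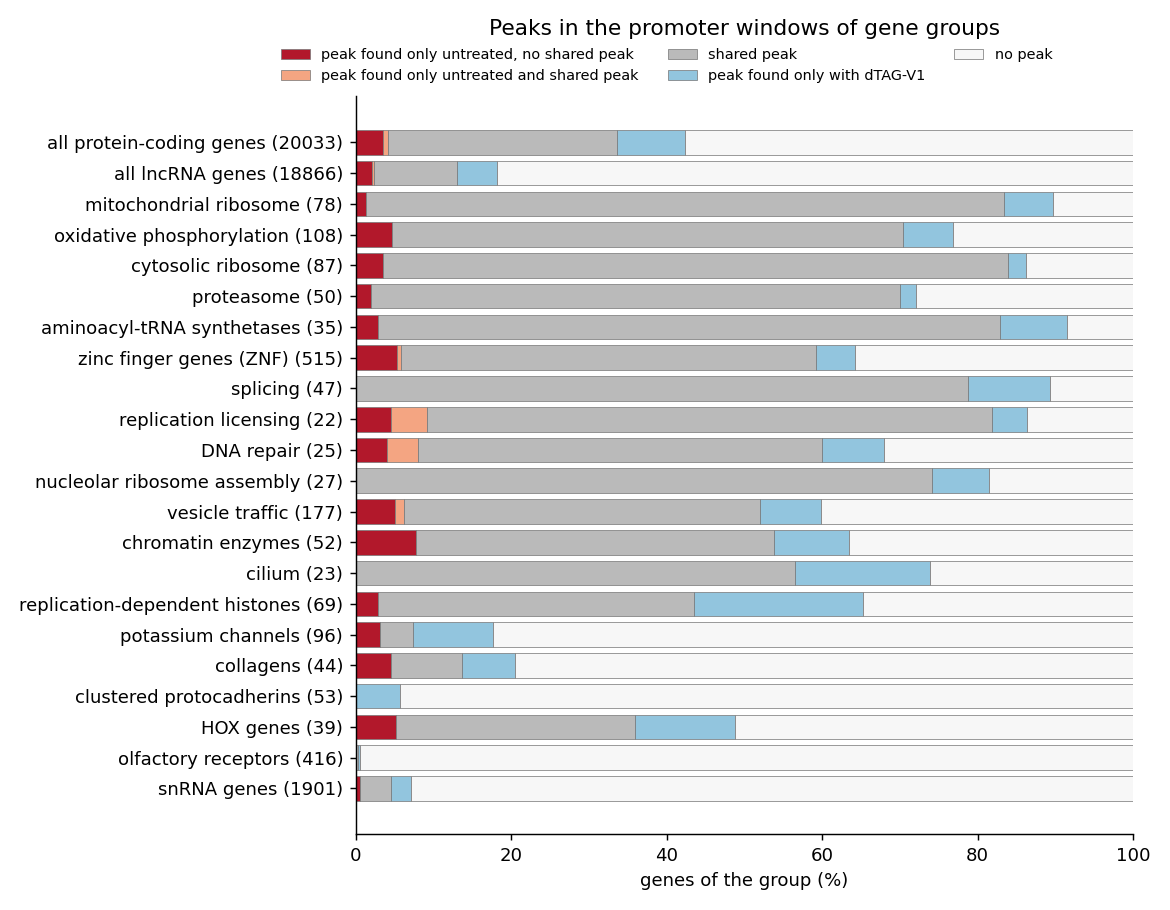
Genes of each group by the state of their promoter window, as a percentage of the genes of the group: a peak found only untreated (without or with a shared peak), a shared peak, a dTAG-V1-only peak or none. The number of genes stands beside each group. Shared peaks are found at most genes of the mitochondrial ribosome (64 of 78) and peaks found only untreated at 1 of them.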

How the data were processed

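The lists represent 8 of the 14 samples, and the 6 CTCF samples and the HA data were not analysed here. Peaks of the untreated list carry DMSO in their names, but labels and methods state no treatment, and these were followed. According to the methods, the authors mapped reads to hg38 with bwa mem, filtered them with SAMtools and Picard, and called narrow peaks with MACS2, naming no control. The deposited score is the integer score of MACS2, made from its q-value. The deposited fold enrichment is a ratio at the summit over local background, and the deposited −log10 q-value is from the same call. All are on the scale of their own list and were not compared between lists. The methods give peaks found in each untreated replicate and in any dTAG-V1 replicate, which could not be checked in lists with 1 row per peak. No library totals were read, so that depth is unknown. A list grows with depth, and a peak near the threshold can be listed once and missed once.

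Overlap (1 bp), TSSs and parts of genes (GENCODE release 44) were computed with Python 3.11.15, pandas 2.3.3, numpy 2.4.6, scipy 1.17.1 and pysam 0.24.0, and plots were drawn with matplotlib 3.10.9. SBS1, SBS2 and CTCF matrices were learned within 50 bp of the summits of the 8250 shared peaks on odd-numbered autosomes (617, 932 and 521 sites), from a consensus with at most 2 mismatches, with 10 iterations at 1e-06 and a pseudocount of 0.8. The learning window was chosen with first versions of the matrices in view. Shared promoter peaks thus overlap the peaks used for learning. Hits were counted at 5e-05, 1e-05 and, for the SBS, 1e-06 per position. The search was tested on simulated data. The 95% intervals are Wilson's for shares and Newcombe's for differences. Peaks are not replicates, no p-value was computed for them, and 4 shared 50 bases with another.

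The peaks, gene lists and words were chosen with earlier results of these data known. Named are the 10 highest and 5 lowest scores, the highest of each gene group (all of a group with up to 5), the 5 strongest SBS hits, the 5 nearest to a dTAG-V1 peak, the 5 smallest overlaps outside the rule and the edges of the window. One of the 5 nearest is not reported here, and TRAPPC11 was chosen after its value was seen. Alternatives were the overlap, the promoter window, the q-value, the annotation, the hit threshold and the search window.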

Additional observations from a re-analysis of the deposited data

How the results depend on the processing

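The number of peaks was 1086, and 2262 when an overlap under 50% counted as none and 658 with a promoter of 500 bp on each side. It stayed within 1.5 times under the other 5 settings tried. The share of promoter peaks, 15.05%, was 31.34% at the 50% overlap, 12.69% with a gap of at least 500 bp, 13.15% at a −log10 q of at least 5, 11.64% with 500 bp on each side, 12.99% with protein-coding genes only and 17.11% with all transcripts. The SBS share, 71.18%, was 43.19% at a hit threshold of 1e-05 and 55.89% within 100 bp of the centre. With a fixed pattern it was 1.473%, against 4.175% of shared promoter peaks. At a −log10 q of at least 5 it was 77.14%. For CTCF, 27.72% became 10.41%, 16.67% and 3.315% under the first 3 of these settings. The exact hexamer, at 2.717% of sites, was at 4.264% with 1e-05 and 8.409% with 1 mismatch. A shared peak nearby, 11.42%, was 3.799% with 500 bp on each side. The difference of the SBS share from shared promoter peaks, -1.31 points with an interval that included 0, was -3.797 at 1e-05, where the interval excluded 0, and turned to 8.372 within 100 bp of the centre, 7.226 within 100 bp of the summit and 32.08 near the centre for scores of 100 to 1000. These 4 settings, the hexamer at SBS1 hits and the numbering of the dTAG-V1 call were chosen after seeing the data. The cause of these changes was not tested.

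Leaving out replicates was not possible, since each list has 1 row per peak. No paired analysis was possible because the lists carry no replicate columns. Depth, the filter on replicates, which by the methods differed between the conditions, and dTAG-V1 itself cannot be told apart as reasons why a peak was listed once.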

Other observations

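Words of 8 bases within 100 bp of the centre of the 1086 peaks were also counted against their flanks 1000 bp away. The words were picked after the counts were seen and carry no test. CTGGGAAA, which on the other strand overlaps the start of the SBS core, was found in 89 peaks (8.20%) and in 15 of their flanks, against 4.53% of shared promoter peaks and 16.3% of untreated-only peaks elsewhere. TCCCAGAA was found in 68 peaks and 17 flanks, and ATTCTGGG in 51 and 10. GACGGGAA was found in 23 peaks and 0 flanks.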
